A study of Mus musculus with 8 samples.

Results

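Wt1, Tcf21, Bnc1, Upk3b, Upk1b, Msln and Krt19 are transcription factors and surface or cytoskeletal genes widely used as markers of epicardium and mesothelium. They were chosen by symbol, with earlier results of these data known, and all 7 were found among the 24421 genes of the expression table. Their mRNA was followed in mouse embryonic stem cells (mESCs) labelled WT and Hira-null, before and after differentiation towards cardiomyocytes. The HIRA protein is a histone chaperone and places H3.3, a replication-independent variant, into chromatin.

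The 8 libraries formed 4 groups of 2, and the replicates came from different biological samples. Hira-null day 15 libraries came from Clone 104 after hanging drop culture, and WT day 15 libraries from W9.5 cells taken through the same protocol. Hira-null day 0 and WT day 0 libraries came from the same lines, undifferentiated and kept with LIF. Every group carried HA-tagged H3.3, and the Hira-null cells were a single clone, so a difference of that clone and a difference of genotype cannot be told apart. Libraries were made from bulk cultures that the labels call cardiomyocytes at day 15, without sorting, so fewer cells of a type and less RNA per cell cannot be told apart.

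Expression was given in FPKM, in which fragment counts are divided by gene length and by the size of the library. The fragments behind the FPKM values could be recovered, and numbered 6897009 to 11088705 per library. Hira itself checked the labels. It measured 12.4 and 11.4 FPKM in Hira-null at day 0, against 27.3 and 28.5 FPKM in WT, and was lower (-1.17 ± 0.10 on the log2(FPKM + 1) scale, SE, adjusted p = 8.48e-05). At day 15 it measured 16.7 and 19.8 FPKM in the libraries labelled Hira-null, against 15.8 and 15.5 FPKM in WT, which was not lower (0.20 ± 0.11, adjusted p = 0.167). A value for the whole gene does not show whether the transcript was intact, and the exons of Hira overlap Gm15797 on the same strand. The day 15 samples are therefore named by their label, and every direction given for day 15 rests on that label. Of the cardiomyocyte genes, Tnnt2, cardiac troponin T, averaged 58.8 ± 1.36 FPKM in libraries labelled Hira-null and 39.9 ± 1.45 FPKM in WT at day 15 (SD, n = 2 each). At day 0 it averaged 0.440 ± 0.365 FPKM in Hira-null and 0.236 ± 0.334 FPKM in WT. Tnnt2 is given for the rise over differentiation only, since its genotype difference at day 15 was not called. Of 16 cardiomyocyte genes, 5 were lower and 2 higher in libraries labelled Hira-null at day 15.

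The epicardium is the mesothelial layer that covers the heart. It grows out of the proepicardium, a cell cluster next to the septum transversum, and spreads over the myocardium as a thin epithelium. Some of its cells then lose their epithelial contacts, an epithelial to mesenchymal transition (EMT), enter the heart wall and give rise to fibroblasts and mural cells of the coronary vessels. Wt1 and Tcf21 are expressed in both the proepicardium and the epicardium, and Wt1, Upk3b, Upk1b, Msln, Bnc1 and Krt19 also mark the mesothelium that lines the other body cavities.

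Promoter sequence is shown for Tcf21 and Upk3b, since these members differed most in FPKM ratio between the genotypes at day 15 and in opposite directions. RefSeq promoter windows (GRCm38.p6) matched 3 of the 7 members, Tcf21, Upk3b and Bnc1. Each window holds the 250 bases before the annotated start, read 5′ to 3′ on the gene's strand. Searched on both strands were AGATAA, the letters of a GATA factor site, GGAATG, those of a TEAD factor site, and CAGCTG, an E-box of the kind that basic helix-loop-helix factors bind. These motifs were picked with the sequences in view. Capitals mark the match, AGATAA for Tcf21, beginning 31 bases before the start, and the reverse complement of GGAATG for Upk3b, beginning 241 bases before it. The Tcf21 window is chr10:22820144-22820393 on the minus strand, and the Upk3b window chr5:136038246-136038495 on the plus strand.
Tcf21: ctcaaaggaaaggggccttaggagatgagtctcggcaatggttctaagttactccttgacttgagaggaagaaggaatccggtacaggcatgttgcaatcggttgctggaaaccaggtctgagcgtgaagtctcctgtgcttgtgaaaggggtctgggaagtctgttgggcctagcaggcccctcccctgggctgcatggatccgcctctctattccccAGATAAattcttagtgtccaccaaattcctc
Upk3b: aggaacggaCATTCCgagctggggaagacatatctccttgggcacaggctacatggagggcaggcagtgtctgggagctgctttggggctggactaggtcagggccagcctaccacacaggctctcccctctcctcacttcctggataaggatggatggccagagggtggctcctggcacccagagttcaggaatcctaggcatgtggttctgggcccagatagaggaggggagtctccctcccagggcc
AGATAA occurs in 9.99% of 32851 promoter windows of this length, GGAATG in 12.6% and CAGCTG in 13%, and the letters of none of them occur in the Bnc1 window. A match describes the letters only. Other spellings of these sites were not searched, so a window without a match may still hold one.

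Differences below are of log2(FPKM + 1) with their standard error, from a limma fit over the 14337 genes that reached FPKM 1 in 2 or more of the 8 libraries, with p-values adjusted over all of them by the Benjamini-Hochberg method and called at 0.05. This scale understates the change of genes at low FPKM, so ratios of mean FPKM are given beside it. Of the members, 6 entered this fit and Bnc1 did not. Tcf21 and Upk3b entered through libraries of the groups in which they were high, and Tcf21 and Upk1b reached FPKM 1 at day 15 only. Counts of members called, and medians of the members, are therefore a description and carry no support of their own. At day 15, 4 of the 6 differed between the libraries labelled Hira-null and WT. Upk3b was higher, and Wt1, Tcf21 and Msln were lower. Of all genes fitted, 37.4% passed the same test, 18.6% higher and 18.8% lower. The median difference of the 6 members was -0.66, against 0.01 over all genes. Without the filter it was -0.43 for all 7 members, against 0.0 over all genes. At day 0, 2 of the 6 differed, Upk3b higher and Krt19 lower in Hira-null, where 40.2% of all genes passed, 20.8% higher and 19.4% lower, with a median difference of -0.02 for the members and 0.01 for all genes.

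**Figure D1:**
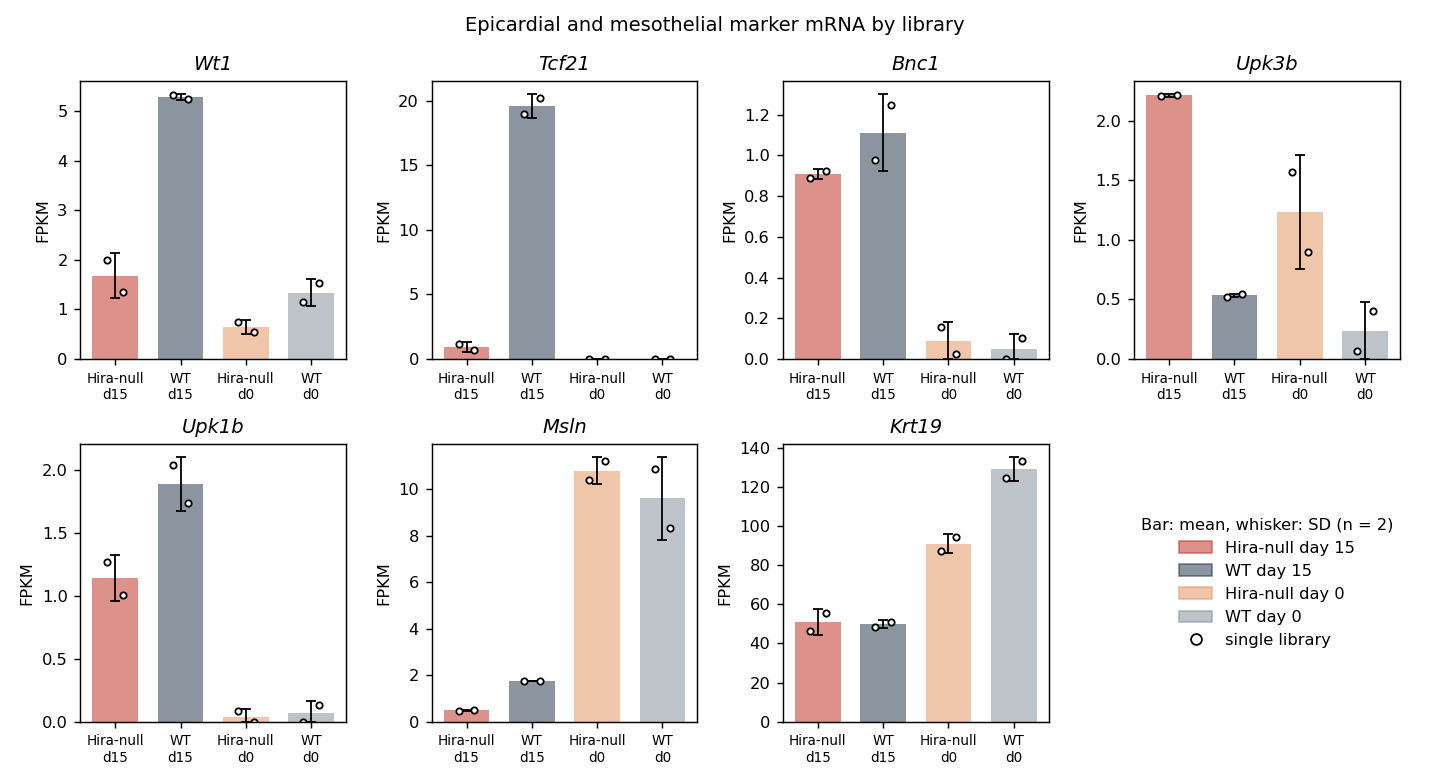
FPKM of each marker by group, with day 15 left of day 0 and libraries labelled Hira-null left of WT; bars are means, whiskers SD (n = 2) and circles single libraries. Tcf21 reached 18.9 and 20.2 FPKM in WT at day 15 and was at 0 in all 4 day 0 libraries, whereas Msln and Krt19 were highest at day 0.

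Among the transcription factors, Tcf21 differed most. Tcf21 (chromosome 10, 22537085 to 22539934, minus strand, NCBIM37) encodes a basic helix-loop-helix factor that the epicardium needs to form cardiac fibroblasts. It measured 1.19 and 0.685 FPKM in the libraries labelled Hira-null at day 15, from 13 and 8 fragments, against 18.9 and 20.2 FPKM in WT, from 219 and 291 fragments. The groups were far apart, since the lowest ratio between any WT library and any library labelled Hira-null was 15.9 and the highest 29.5. Mean FPKM was 20.9-fold lower in the libraries labelled Hira-null (difference -3.42 ± 0.17, adjusted p = 1.10e-05), and the ratio of fragments was 0.0472, with a 95% interval for counting error of 0.0290 to 0.0730. All 4 day 0 libraries held 0 fragments, which allows up to 3 fragments each, or on average 0.317 FPKM in Hira-null and 0.311 FPKM in WT, so no genotype difference was detectable there. Set against that floor, day 15 was at least 2.96-fold higher than day 0 in Hira-null-labelled cultures (0.94 ± 0.17, adjusted p = 9.24e-04) and at least 63.0-fold higher in WT (4.36 ± 0.17, adjusted p = 1.65e-07). In order of level, WT at day 15 stood above the libraries labelled Hira-null at day 15, and these above both day 0 groups, which were tied at 0.

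Wt1 encodes a zinc finger factor that drives EMT of the epicardium and is also needed for kidney and gonad. It lies on chromosome 2, 104966686 to 105013773, plus strand, NCBIM37. It measured 2.0 and 1.36 FPKM in the libraries labelled Hira-null at day 15 (55 and 40 fragments), against 5.32 and 5.24 FPKM in WT (155 and 190 fragments). Both WT libraries lay above both others. Mean FPKM was 3.15-fold lower in the libraries labelled Hira-null (-1.24 ± 0.18, adjusted p = 0.00109), with a fragment ratio of 0.316 (95% interval 0.249 to 0.397). At day 0 Wt1 measured 0.753 and 0.552 FPKM in Hira-null and 1.14 and 1.53 FPKM in WT. The difference of -0.50 ± 0.18 missed the test (adjusted p = 0.0519). It passed with pseudocounts of 0.1 and 0.5, the stricter filter and quantile normalization, with adjusted p from 0.0164 to 0.0478. With voom on the recovered fragments (adjusted p = 0.123) and with only the day 0 libraries (0.129) it did not pass. The difference was -0.62 without WT day 0 replicate 1 and -0.38 without WT day 0 replicate 2. Wt1 was higher at day 15 than at day 0 in libraries labelled Hira-null (0.69 ± 0.18, adjusted p = 0.0070) and in WT (1.43 ± 0.18, adjusted p = 1.07e-04). The Hira-null rise was lost without library 1 of day 15 (adjusted p = 0.0527) and after quantile normalization (0.107). From high to low the levels ran WT day 15, Hira-null day 15, WT day 0 and Hira-null day 0, and the middle neighbours, at 1.36 to 2.0 and 1.14 to 1.53 FPKM, overlapped.

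Bnc1, basonuclin 1, is a zinc finger factor of mesothelium, keratinocytes and germ cells. It lies on chromosome 7, 89111558 to 89137185, minus strand, NCBIM37, where its exons overlap the antisense gene 4833418N17Rik, and the sources used here do not say whether counting used the strand. It measured 0.891 and 0.924 FPKM in libraries labelled Hira-null at day 15 (37 and 41 fragments), against 0.979 and 1.24 FPKM in WT (43 and 68 fragments). At day 0 it measured 0.156 and 0.0244 FPKM in Hira-null (5 and 1 fragments), against 0 and 0.102 FPKM in WT (0 and 4 fragments). Bnc1 was low throughout. A fit without the filter, added after the data were seen, covered 19134 genes and gave a day 15 genotype difference of -0.14 ± 0.12 (adjusted p = 0.444, where 26.7% of genes passed), and the fragment ratio was 0.806 (95% interval 0.596 to 1.09). At day 0 it gave 0.05 ± 0.11 (adjusted p = 0.828, 28.9% of genes passed). Bnc1 rose over differentiation in libraries labelled Hira-null (0.81 ± 0.12, adjusted p = 8.00e-04, 58.9% of genes passed) and in WT (1.01 ± 0.12, adjusted p = 3.24e-04, 53.7% of genes passed), with fragment ratios of 11 (4.85 to 31.0) and 20.8 (7.88 to 77.5).

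**Figure D2:**
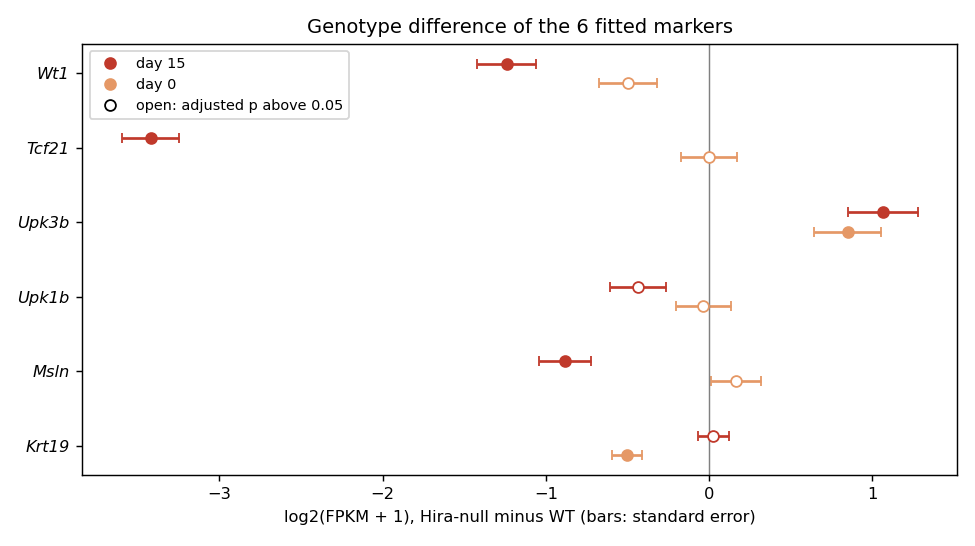
Difference of log2(FPKM + 1), libraries labelled Hira-null minus WT, for the 6 fitted markers at day 15 and day 0; points are fitted differences, bars their standard error, and open points have an adjusted p above 0.05. At day 15 Tcf21 stood at -3.42 and Upk3b at 1.07, and at day 0 Upk3b stood at 0.85 and Krt19 at -0.50.

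The uroplakins are membrane proteins known from the plaques of the urothelium, and some of them are also made by mesothelium. Upk3b (chromosome 5, 136514366 to 136521173, plus strand, NCBIM37) was the member that was higher in Hira-null at both days. It measured 2.20 and 2.22 FPKM in the libraries labelled Hira-null at day 15 (40 and 43 fragments), against 0.521 and 0.545 FPKM in WT (10 and 13 fragments). The replicates were close and the groups well apart. Mean FPKM was 4.15-fold higher (1.07 ± 0.21, adjusted p = 0.00475), with a fragment ratio of 4.14 (95% interval 2.58 to 6.89). The call was lost without either WT day 15 library (adjusted p = 0.0549 without replicate 1 and 0.0513 without replicate 2), at differences of 1.06 and 1.08. At day 0 Upk3b measured 1.57 and 0.894 FPKM in Hira-null (22 and 16 fragments), against 0.0667 and 0.407 FPKM in WT (1 and 7 fragments). All Hira-null values exceeded the WT ones, though both groups were scattered. The ratio of means was 5.21 (0.85 ± 0.21, adjusted p = 0.0106), the fragment ratio 4.80 (95% interval 2.20 to 11.9), and the call was lost without Hira-null replicate 1 (0.63, adjusted p = 0.0930) or WT replicate 1 (0.65, adjusted p = 0.0570). Over differentiation Upk3b differed by 0.54 ± 0.21 in libraries labelled Hira-null (adjusted p = 0.0411), a call lost under 11 alternatives with adjusted p up to 0.351, and by 0.32 ± 0.21 in WT (adjusted p = 0.195). In order of level the Hira-null groups, day 15 above day 0, stood above WT at day 15, and WT at day 15 stood above WT at day 0.

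Upk1b, a tetraspanin of the same family (chromosome 16, 38773297 to 38800316, minus strand, NCBIM37), followed another pattern. It measured 1.27 and 1.01 FPKM in the libraries labelled Hira-null at day 15 (20 and 17 fragments), against 2.04 and 1.74 FPKM in WT (34 and 36 fragments). The difference of -0.43 ± 0.17 missed the test (adjusted p = 0.0791). The fragment ratio was 0.606, with a 95% interval of 0.396 to 0.916 that covers counting error only and not the spread between samples. At day 0 there were 1 and 0 fragments in Hira-null and 0 and 2 in WT, too few to compare (-0.03 ± 0.17, adjusted p = 0.909). Upk1b rose over differentiation in libraries labelled Hira-null (1.04 ± 0.17, adjusted p = 4.78e-04; fragment ratio 31.4, 95% interval 5.30 to 1275) and in WT (1.44 ± 0.17, adjusted p = 7.33e-05; fragment ratio 26.2, 95% interval 6.98 to 220).

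Msln encodes mesothelin, a lipid-anchored glycoprotein of the mesothelial surface (chromosome 17, 25885559 to 25891272, minus strand, NCBIM37). Its level ran against its use as a mesothelial marker of the differentiated cultures, since it was highest in the undifferentiated stem cells. It measured 0.478 and 0.497 FPKM in the libraries labelled Hira-null at day 15 (9 and 10 fragments), against 1.76 and 1.73 FPKM in WT (35 and 43 fragments). At day 0 it measured 10.4 and 11.2 FPKM in Hira-null, against 10.9 and 8.34 FPKM in WT. The genotypes overlapped at day 0 and were apart at day 15. The day 15 mean was 3.58-fold lower in libraries labelled Hira-null (-0.88 ± 0.16, adjusted p = 0.00293; fragment ratio 0.279, 95% interval 0.160 to 0.466), and the day 0 difference was 0.16 ± 0.15 (adjusted p = 0.441). Over differentiation Msln fell 22.2-fold in libraries labelled Hira-null (-2.99 ± 0.16, adjusted p = 3.91e-07) and 5.50-fold in WT (-1.94 ± 0.16, adjusted p = 6.88e-06).

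Krt19, a type I keratin of simple epithelium, was the most abundant member per length in every library (chromosome 11, 100002124 to 100009979, minus strand, NCBIM37). It measured 46.2 and 55.5 FPKM in the libraries labelled Hira-null at day 15, against 48.3 and 51.2 FPKM in WT, with both WT values inside the Hira-null range. The difference was 0.03 ± 0.10 (adjusted p = 0.851), and the ratio of fragments was 1.02 with a 95% interval for counting error of 0.948 to 1.10. At day 0 it measured 87.4 and 94.4 FPKM in Hira-null, against 125 and 133 FPKM in WT. Here the groups were apart, and mean FPKM was 1.42-fold lower in Hira-null (-0.50 ± 0.09, adjusted p = 0.00316). Krt19 fell over differentiation in libraries labelled Hira-null (-0.83 ± 0.09, adjusted p = 4.73e-05) and in WT (-1.36 ± 0.09, adjusted p = 2.99e-06), so that it was highest in WT at day 0, lower in Hira-null at day 0, and lowest in both day 15 groups, which overlapped.

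Across differentiation the members thus moved in opposite directions. In libraries labelled Hira-null all 6 fitted members differed between day 15 and day 0, with Wt1, Tcf21, Upk3b and Upk1b higher and Msln and Krt19 lower, where 73.9% of all genes passed, 37.5% higher and 36.4% lower. In WT 5 of 6 differed, with Wt1, Tcf21 and Upk1b higher and Msln and Krt19 lower, where 69.5% of all genes passed, 36.1% higher and 33.4% lower. The day comparisons use the same libraries as the genotype comparisons and add no independent samples. The genotype effect itself differed between the days for 3 of 6 members, where 35.2% of all genes passed, 17.5% higher and 17.7% lower. It was lower at day 15 than at day 0 for Tcf21 (-3.42 ± 0.24, adjusted p = 8.68e-05) and Msln (-1.05 ± 0.22, adjusted p = 0.00750), and higher for Krt19 (0.53 ± 0.13, adjusted p = 0.0164). Tcf21 had 0 fragments in every day 0 library, where no genotype effect could be seen, so its value repeats the day 15 difference. The Krt19 call was lost without WT day 15 replicate 1 (0.49, adjusted p = 0.0691), without Hira-null day 0 replicate 1 (0.47, adjusted p = 0.0664) and after quantile normalization (0.38, adjusted p = 0.0642). For Wt1 the change in genotype effect was -0.74 ± 0.25, just short of the threshold (adjusted p = 0.05002), and it was called under 3 alternatives. It was 0.22 ± 0.30 for Upk3b (adjusted p = 0.601) and -0.40 ± 0.24 for Upk1b (adjusted p = 0.226), and in the unfiltered fit -0.20 ± 0.17 for Bnc1 (adjusted p = 0.441, where 25.1% of genes passed).

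**Figure D3:**
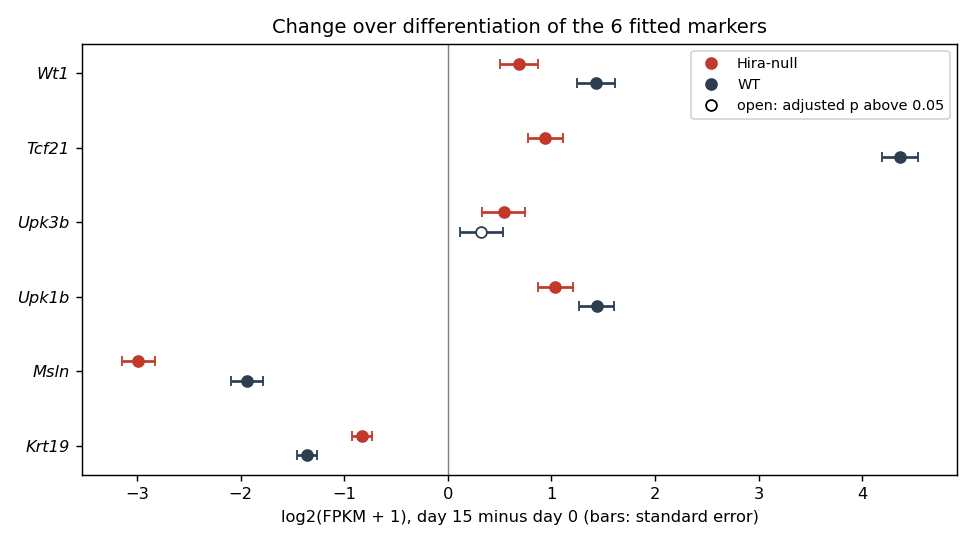
Difference of log2(FPKM + 1), day 15 minus day 0, for the 6 fitted markers in libraries labelled Hira-null and in WT; points are fitted differences, bars their standard error, and open points have an adjusted p above 0.05. Tcf21 stood at 0.94 in libraries labelled Hira-null and at 4.36 in WT, and Msln at -2.99 and -1.94.

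Other gene lists, compiled from general knowledge but with earlier results of these data known, were read beside the members at day 15. Each count is out of the genes of the list that were fitted, and can be set against the 18.6% of all genes that were higher and the 18.8% that were lower. As with the members, some listed genes entered the fit only through the group in which they were high, so the counts are a description. In libraries labelled Hira-null, 6 of 22 other epicardium and mesothelium genes were higher and 5 were lower, with a median difference of 0.12. Sulf1, a heparan sulfate 6-O-endosulfatase, averaged 211 ± 0.619 FPKM against 63.4 ± 1.68 FPKM in WT (1.72, adjusted p = 7.58e-06). Dcn, the matrix proteoglycan decorin, averaged 15.8 ± 3.46 FPKM against 43.2 ± 1.22 FPKM (-1.41, adjusted p = 4.46e-04), and Podxl, the surface sialomucin podocalyxin, 21.1 ± 0.381 FPKM against 41.1 ± 2.71 FPKM (-0.93, adjusted p = 1.13e-04). Efnb2, the ligand ephrin B2, averaged 43.8 ± 1.5 FPKM against 48.1 ± 0.581 FPKM and was not called (adjusted p = 0.313). Tbx18 and Aldh1a2 of this list, picked after their values were seen, also went opposite ways and do not stand for its other epicardial genes. Tbx18, a T-box factor of the epicardium, averaged 1.89 ± 0.436 FPKM in libraries labelled Hira-null and 0.958 ± 0.167 FPKM in WT (0.56, adjusted p = 0.0375). Aldh1a2, which makes retinoic acid, averaged 2.44 ± 0.0893 FPKM and 4.2 ± 0.0346 FPKM (-0.59, adjusted p = 0.0130). Leaving out any of the 4 WT libraries left 3 genes of the list higher, and 3 were lower without WT day 15 replicate 2.

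The transcription factors of the proepicardium and septum transversum were lower as a list. None of the 14 fitted was higher and 10 were lower in libraries labelled Hira-null, with a median of -1.28, and 10 were also lower with each day 15 library left out. Gata4, which the proepicardium needs to form, averaged 3.30 ± 0.502 FPKM in libraries labelled Hira-null against 21.8 ± 1.82 FPKM in WT (-2.41, adjusted p = 1.56e-05). Hand2, a basic helix-loop-helix factor of the heart fields and epicardium, averaged 6.73 ± 0.417 FPKM against 36.3 ± 2.14 FPKM (-2.27, adjusted p = 5.06e-05). Meis1, a homeobox cofactor, averaged 18.1 ± 3.25 FPKM against 44.5 ± 2.22 FPKM (-1.27, adjusted p = 0.00120). Nr2f2, a nuclear receptor of venous and epicardial cells, averaged 37.6 ± 1.87 FPKM against 33.2 ± 4.53 FPKM and was not called (adjusted p = 0.399). The study singled out Gata4, Hand1, Hand2, Isl1 and Meis1 of this list from these libraries, so its direction is not independent of that choice. At day 0, 4 of the 14 were already lower in Hira-null and none was higher, where 19.4% of all genes were lower and 20.8% higher.

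Genes of EMT and of epicardium-derived fibroblasts and mural cells were mostly lower at day 15, with 15 of 23 lower and 2 higher in libraries labelled Hira-null (median -0.72). Col1a1, an alpha chain of type I collagen, averaged 290 ± 65.0 FPKM against 1054 ± 119 FPKM in WT (-1.87, adjusted p = 7.56e-05), and Acta2, smooth muscle actin, 406 ± 10.5 FPKM against 554 ± 39.1 FPKM (-0.45, adjusted p = 0.00182). The genes called the other way were Vim, the mesenchymal filament vimentin, at 1103 ± 126 FPKM against 650 ± 39.7 FPKM (0.76, adjusted p = 3.30e-04), and Tgfb2, an EMT-inducing ligand, at 36.8 ± 1.65 FPKM against 21.0 ± 0.870 FPKM (0.78, adjusted p = 0.00128). Fn1, fibronectin, averaged 565 ± 16.5 FPKM against 507 ± 31.4 FPKM (adjusted p = 0.0986). Without either WT day 15 library 10 of the 22 then fitted were lower.

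Epicardial growth factors and their receptors were split, with 6 of 20 higher and 5 lower (median -0.02), and 3 lower without either WT day 15 library or Hira-null day 15 replicate 1. Igf2, the mitogen that the epicardium supplies to the myocardium, averaged 812 ± 10.8 FPKM in libraries labelled Hira-null against 163 ± 1.88 FPKM in WT (2.31, adjusted p = 7.68e-06). Tmsb4x, thymosin beta 4, averaged 907 ± 171 FPKM against 607 ± 91.1 FPKM (0.57, adjusted p = 0.00896), and Ctnnb1, beta-catenin, 346 ± 1.37 FPKM against 260 ± 8.08 FPKM (0.41, adjusted p = 7.82e-04). Fgfr1, a receptor of the fibroblast growth factors, was lower at 47.5 ± 6.84 FPKM against 59.0 ± 2.61 FPKM (-0.31, adjusted p = 0.0365). Of 14 genes of the YAP and TEAD pathway, 3 were higher and 1 lower (median 0.02), and the lower count was 0 without Hira-null day 15 replicate 1 or WT day 15 replicate 2 and 2 without Hira-null day 15 replicate 2. Ctgf averaged 238 ± 12 FPKM against 171 ± 3.94 FPKM (0.48, adjusted p = 0.00128) and Amotl2 82.0 ± 12.2 FPKM against 51.6 ± 2.58 FPKM (0.65, adjusted p = 0.00214), and Tead4 was lower at 1.53 ± 0.203 FPKM against 3.16 ± 1.06 FPKM (-0.70, adjusted p = 0.0154). Tead2 averaged 77.4 ± 6.35 FPKM against 87.2 ± 2.58 FPKM and Cyr61 162 ± 8.75 FPKM against 179 ± 9.87 FPKM, and these were not called (adjusted p = 0.12 and 0.159).

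**Figure D4:**
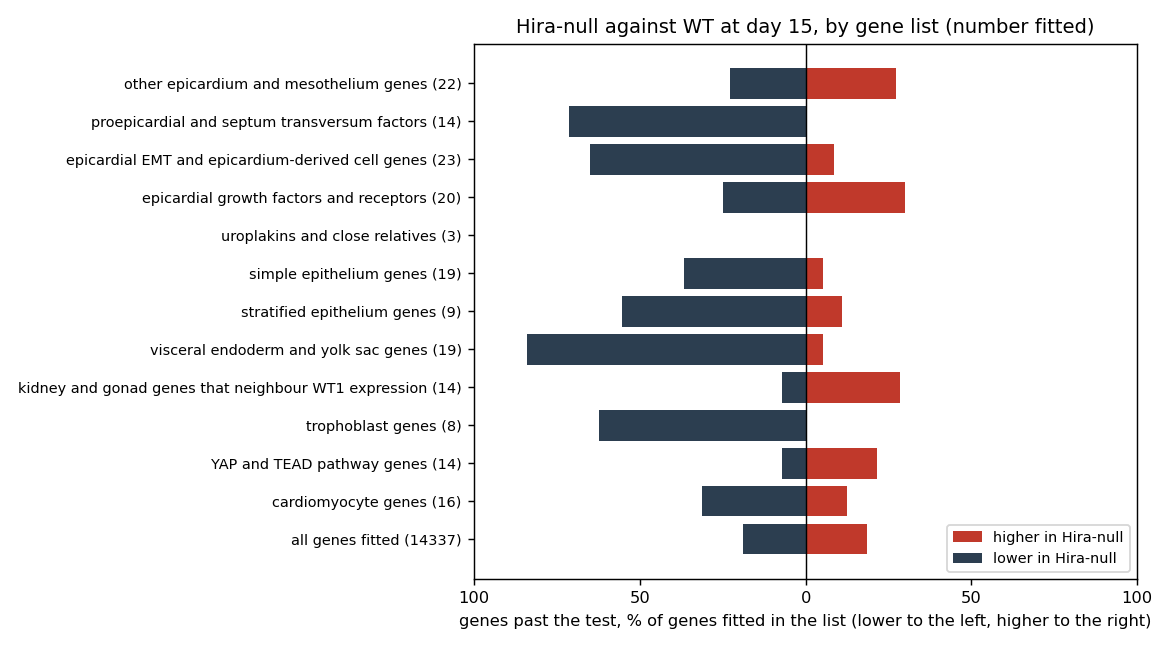
Share of the fitted genes of each list that were lower (left) or higher (right) at day 15 in libraries labelled Hira-null, set against WT, in percent, with the number fitted in brackets and all 14337 genes in the bottom row. None of the 14 proepicardial factors was higher and 10 were lower, and the visceral endoderm list, with 16 of 19 lower, lay furthest to the left. Part of the visceral endoderm list entered the fit only through the WT day 15 libraries, where it was high.

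Since every member is also expressed outside the epicardium, lists for other tissues that use them were read at day 15. Their part in the members' differences was not tested. Of 19 visceral endoderm and yolk sac genes, 16 were lower and 1 was higher in libraries labelled Hira-null (median -1.60). With either WT day 15 library left out, 15 were fitted. Part of the list thus entered the fit only through the group in which it was high, which largely set its direction beforehand. With FPKM 1 asked for in at least 4 libraries, 11 of 14 were lower and 1 was higher (median -1.59). The summed level of the 20 genes was 57.9 to 59.2 FPKM in libraries labelled Hira-null, against 212 to 217 FPKM in WT. Afp, alpha-fetoprotein, averaged 0.0538 ± 0.0761 FPKM against 55.3 ± 1.16 FPKM (-5.74, adjusted p = 1.10e-05), and Rbp4, the retinol carrier, 2.25 ± 0.250 FPKM against 22.7 ± 1.74 FPKM (-2.87, adjusted p = 2.79e-05). Apoa2 and Fgb of this list were at 0 in both libraries labelled Hira-null. Foxa2, an endoderm and floor plate factor, was called the other way at 24.0 ± 1.40 FPKM against 11.9 ± 0.670 FPKM (0.96, adjusted p = 8.09e-04), and Dab2 averaged 23.1 ± 0.666 FPKM against 29.7 ± 0.871 FPKM (adjusted p = 0.0548).

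Of 19 simple epithelium genes, 7 were lower and 1 higher (median -0.37). Krt8, the usual partner of Krt19, averaged 62.5 ± 15.2 FPKM against 83.8 ± 2.79 FPKM in WT at day 15 (-0.44, adjusted p = 0.0384), Krt18 72.0 ± 7.93 FPKM against 111 ± 4.50 FPKM (-0.62, adjusted p = 5.93e-04), and Cdh1, E-cadherin, 41.4 ± 1.61 FPKM against 62.0 ± 2.40 FPKM (-0.57, adjusted p = 3.37e-04). Spint2, a protease inhibitor, went the other way at 57.7 ± 4.90 FPKM against 40.9 ± 1.66 FPKM (0.48, adjusted p = 0.00144). Over differentiation none of this list was called higher, and 15 of 19 were called lower in either genotype, as Krt19 was. Of all genes, 36.4% were called lower in Hira-null and 33.4% in WT. Krt8 did not fall in Hira-null, where it averaged 51.4 FPKM at day 0 and 62.5 FPKM at day 15. At day 0, 11 were higher and 5 lower in Hira-null, beside 20.8% and 19.4% of all genes. Krt8, at 51.4 ± 4.81 FPKM in Hira-null against 216 ± 1.92 FPKM in WT, was lower as Krt19 was (-2.05, adjusted p = 2.56e-05).

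Of 9 stratified epithelium genes, 5 were lower and 1 higher at day 15 (median -0.70). Krt15 averaged 3.44 ± 1.45 FPKM against 10.5 ± 1.84 FPKM (-1.40, adjusted p = 0.00339), and Perp, a desmosome protein, was the gene called higher at 45.6 ± 2.94 FPKM against 21.6 ± 1.46 FPKM (1.04, adjusted p = 8.63e-05). Of 8 trophoblast genes 5 were lower and none higher (median -0.79), among them Tfap2c at 2.74 ± 0.728 FPKM against 7.29 ± 0.401 FPKM (-1.16, adjusted p = 4.23e-04) and Hand1, which is also in the proepicardial list, at 2.45 ± 0.452 FPKM against 17.7 ± 0.184 FPKM (-2.45, adjusted p = 1.12e-05). Without WT replicate 1, 3 of 9 stratified epithelium and 2 of 7 trophoblast genes were lower, and without WT replicate 2, 3 of 7 trophoblast genes. The kidney and gonad genes that neighbour Wt1 expression were higher in 4 and lower in 1 of 14 (median 0.08), with 2 of 13 higher and none lower without WT replicate 1 and none lower without WT replicate 2 either. Nphs1, the podocyte protein nephrin, averaged 4.99 ± 0.919 FPKM against 2.17 ± 0.0615 FPKM (0.91, adjusted p = 0.00240), Sox9, a factor of the testis and of progenitors, 32.3 ± 0.844 FPKM against 15.4 ± 0.886 FPKM (1.02, adjusted p = 9.92e-04), and Hoxd11, of the kidney mesenchyme, went the other way at 0.282 ± 0.0597 FPKM against 3.22 ± 0.236 FPKM (-1.72, adjusted p = 1.43e-04). Of the relatives of the uroplakin members, Upk1a, Upk2 and Upk3bl were fitted, none was called at day 15 at an adjusted p between 0.199 and 0.624, and their highest group mean was 2.66 FPKM. When only the day 15 libraries were fitted, 1 of them entered and was called lower (-0.64).

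Of 16 cardiomyocyte genes, 2 were higher and 5 lower at day 15 (median -0.25), and 2 were lower without either WT day 15 library. None was higher without Hira-null day 15 replicate 2, and 1 was without Hira-null or WT replicate 1. Myl7, the atrial myosin light chain, averaged 12.1 ± 0.307 FPKM in libraries labelled Hira-null against 66.9 ± 2.80 FPKM in WT (-2.37, adjusted p = 7.68e-06), and Actc1, cardiac actin, 29.2 ± 5.67 FPKM against 52.5 ± 0.271 FPKM (-0.84, adjusted p = 0.0236). Nppa, the natriuretic peptide of the atria, was higher at 5.03 ± 0.228 FPKM against 0.552 ± 0.238 FPKM (1.97, adjusted p = 9.86e-05), and so was Atp2a2, the calcium pump, at 97.4 ± 4.27 FPKM against 82.4 ± 0.561 FPKM (0.24, adjusted p = 0.0170).

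The genes whose pattern over the 8 libraries was most like each fitted member are given as a description, by Pearson correlation of log2(FPKM + 1) over libraries that share group structure. For Tcf21 these were Nepn, Pi15 and Tfap2b (r = 0.996, 0.996 and 0.995). Each was at or near 0 at day 0 and higher in WT at day 15, as with Pi15 at 0.228 FPKM in libraries labelled Hira-null and 2.97 FPKM in WT. For Wt1 they were Elmod2, Ist1 and Etaa1 (r = 0.995, 0.987 and 0.985), for Upk3b Lgr6, Tmem59 and Ralgps1 (0.994, 0.983 and 0.979) and for Upk1b Zbed6, Trim55 and Rftn2 (0.996, 0.995 and 0.995). Lgr6, a receptor for R-spondins, averaged 3.12 FPKM in libraries labelled Hira-null and 0.963 FPKM in WT at day 15, and 1.83 FPKM in Hira-null and 0.509 FPKM in WT at day 0, the order seen for Upk3b. For Msln they were Pot1a, Syce2 and Gtf3a (0.999, 0.998 and 0.998), and for Krt19 Pdcd11, Uqcrq and Nlrp4f (0.997, 0.996 and 0.996), all of them highest at day 0.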

How the data were processed

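Messenger RNA of 2 Hira-null and 2 WT samples at day 15 and at day 0 was sequenced as stranded, paired-end libraries, and the authors aligned reads to mm9 with Bowtie 0.12.2. The authors deposited FPKM for 24421 genes in 8 libraries. They also deposited tables of their own genotype comparison at each day, made with DESeq2 1.6.3 (mean signal, fold, standard error, statistic and p-values), which were not used. ChIP-seq was not analysed here.

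FPKM values of a gene are whole multiples of the value of 1 fragment (100% of positive values within 0.01 of a fragment), which gave the fragments of 19134 genes, a median of 8764772 per library. Intervals (95%, exact Poisson or conditional binomial) and the floor of 3 fragments cover counting error only. Genes that reached FPKM 1 in 2 or more libraries were kept, and log2(FPKM + 1) was modelled by 4 group means in limma 3.58.1 (R 4.3.3), with day weights of 0.968 for day 15 and 1.03 for day 0 and an empirical Bayes trend (4 residual and 4.70 prior degrees of freedom), and adjusted p-values were called at 0.05. The scripts were tested on simulated data.

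Alternatives were pseudocounts of 0.1 and 0.5, no filter or a stricter filter, no weights, quantile and median scaling, voom on the recovered fragments, a replicate block, fits within a day or genotype, and leaving out each library. The members and lists were chosen with earlier results of these data known. Named were all members, Hira, up to 4 genes of each list with the highest group mean, genes called against most of their list, and the 3 genes closest in pattern to each member. Tbx18 and Aldh1a2 were also named, after their values were seen. Positions come from the NCBIM37 annotation.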

Additional observations from a re-analysis of the deposited data

Results flagged for a closer look

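The genotype effect of 3 members differed between day 15 and day 0 by the test of that difference. It was -3.42 for Tcf21, which had 0 fragments in all 4 day 0 libraries, -1.05 for Msln and 0.53 for Krt19 (log2(FPKM + 1), effect at day 15 minus effect at day 0, where each effect is Hira-null minus WT). With 2 libraries per group, a single library far from its group was not looked for.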

How the results depend on the processing

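Of 20 called results for single members, none reversed under any alternative in 348 refits, 328 kept their call and 20 lost it. Members called at day 15 numbered 2 when FPKM 1 was asked for in at least 4 libraries, a filter that leaves out Tcf21 and Upk3b, and members called at day 0 numbered 1 when only that day's libraries were fitted, where Upk3b, at FPKM 1 or more in 1 of them, left the fit and Krt19 stayed called. With each library left out in turn, members called ranged from 3 to 4 at day 15, 1 to 2 at day 0, 5 to 5 over differentiation in WT, 4 to 6 in Hira-null, and 2 to 4 for the change in genotype effect. All genes called ranged from 2541 to 5309 at day 15 (2541 without WT day 15 replicate 1 and 2589 without replicate 2), 3655 to 5638 at day 0 (3655 without Hira-null day 0 replicate 1 and 3782 without replicate 2), 8181 to 9940 in WT, 9499 to 10700 in Hira-null, and 2896 to 4523 for the change in effect (2896 without WT day 15 replicate 1 and 3219 without replicate 2).

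Signs turned only for values that were not called. The Krt19 day 15 difference ran from -0.10 without Hira-null day 15 replicate 2 to 0.16 without its replicate 1, and was -0.01 without WT day 15 replicate 1. At day 0, Upk1b ran from -0.12 without WT replicate 1 to 0.057 without WT replicate 2, with 0.02 without Hira-null replicate 2, and Msln from -0.0085 without WT replicate 2 to 0.34 without replicate 1. For Upk3b the WT day difference was -0.20 after quantile normalization, and the change in genotype effect was -0.28 with a pseudocount of 0.1, -0.52 with voom and ran from -0.0036 without Hira-null day 0 replicate 2 to 0.44 without its replicate 1. The cause of these was not tested. Voom moved the median of all genes for day 15 minus day 0 in WT to 0.17, against 0.03, and relative to it Wt1 stood at 1.92, Tcf21 at 8.53, Upk1b at 4.49, Msln at -2.46 and Krt19 at -1.42.

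Differences between replicates were not shared across groups (correlations of deviations from -0.097 to 0.046). The study took its day 15 replicates from distinct experiments, and these correlations do not settle whether replicate numbers pair the samples. With a replicate block the members called were 4 at day 15, 2 at day 0, 5 in WT, 5 in Hira-null and 3 for the change in effect, and the Upk3b day difference in Hira-null, 0.54, was not called (adjusted p = 0.0618). Depth limits Tcf21, with 0 fragments at day 0, and Upk1b, Bnc1 and Upk3b, with 8 or fewer in at least 1 day 0 group.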
